A study of Mus musculus with 12 samples.

Results

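The nuclear genes for the subunits of respiratory complexes II, III and IV and of the ATP synthase (complex V) were followed in inguinal white fat (iWAT), which lies under the skin of the groin, and in brown fat (BAT) of mice. They were taken by symbol (Sdha to Sdhd, symbols beginning with Uqcr, Cox4 to Cox8 and symbols beginning with Atp5, protein-coding only), leaving out Cox7a1, Cox8b and Cox6a2, which mark brown fat or muscle. The rule found 41 of the 16738 genes in the white fat table and 42 of the 15363 genes in the brown fat table, the extra gene in brown fat being Cox4i2. Atp5s, Cox7b2 and Cox8c, which the rule also finds in the GENCODE M21 annotation, were not analysed here. The 42 genes lie on 18 chromosomes and none is in the mitochondrial genome.

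The white fat samples were 12 RNA-seq libraries of 3 each from KO females, WT females, KO males and WT males. KO mice lack NDUFS4, an accessory subunit of complex I, in adipocytes, and WT mice are their wild-type counterparts. All 4 groups were of the C57BL/6 strain, ate a high-fat diet and lived at room temperature. The driver of the adipocyte deletion, the age of the mice, the number of animals behind a library and the groups of the brown fat libraries are not given in these sources. Values per library were not used here, so depth is unknown and each result below is the interaction of genotype and sex from the authors' deposited tables, taken as the KO effect (log2) of females less that of males. That order is read from the tables' names. A value above 0 can come from a higher level in KO females, a lower level in KO males, or from the WT groups. In pieces of whole tissue, fewer cells of a type and less RNA per cell cannot be told apart. Ndufs4 itself had an interaction of 0.89 ± 0.38 (standard error here and below) in white fat and of -0.10 ± 0.14 in brown fat in the authors' deposited tables, with adjusted p-values of 0.169 and 0.946, which does not check the genotype labels within a sex.

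Complex II (succinate dehydrogenase) oxidises succinate in the tricarboxylic acid cycle and passes the electrons to ubiquinone. Complex III passes electrons from ubiquinol to cytochrome c, complex IV passes them to oxygen, and complex V makes ATP with the proton gradient that complexes I, III and IV build. All subunits of complex II come from nuclear genes, while complexes III, IV and V also hold subunits made inside mitochondria. White adipocytes hold few mitochondria, and brown adipocytes hold many, whose proton gradient is run down by UCP1 to make heat.

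In white fat 39 of the 41 subunit genes lay above 0, the side on which 55.9% of all genes in the table lay. Their median interaction was 0.95, which corresponds to a KO to WT ratio 1.93 times as high in females as in males, against a median of 0.13 over all genes. None of the 41 passed an adjusted p of 0.05 in the authors' deposited limma test, where 795 genes (4.75%) passed in all and 177 (1.06%) passed above 0. At an unadjusted p of 0.05, 24 of the 41 passed and all 24 were above 0, against 11.9% of all genes that did so. The median error was 0.43 for the members and 0.51 for all genes, so an interaction of a given size passed more readily among the members. At an adjusted p of 0.10, 6 of the 41 passed, all above 0, where 12.1% of all genes passed in either direction and 4.67% passed above 0. The subunits were measured in the same libraries and are not independent of each other, so no test was made of them as a group. With the all-gene median subtracted, their own median was 0.82.

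**Figure D1:**
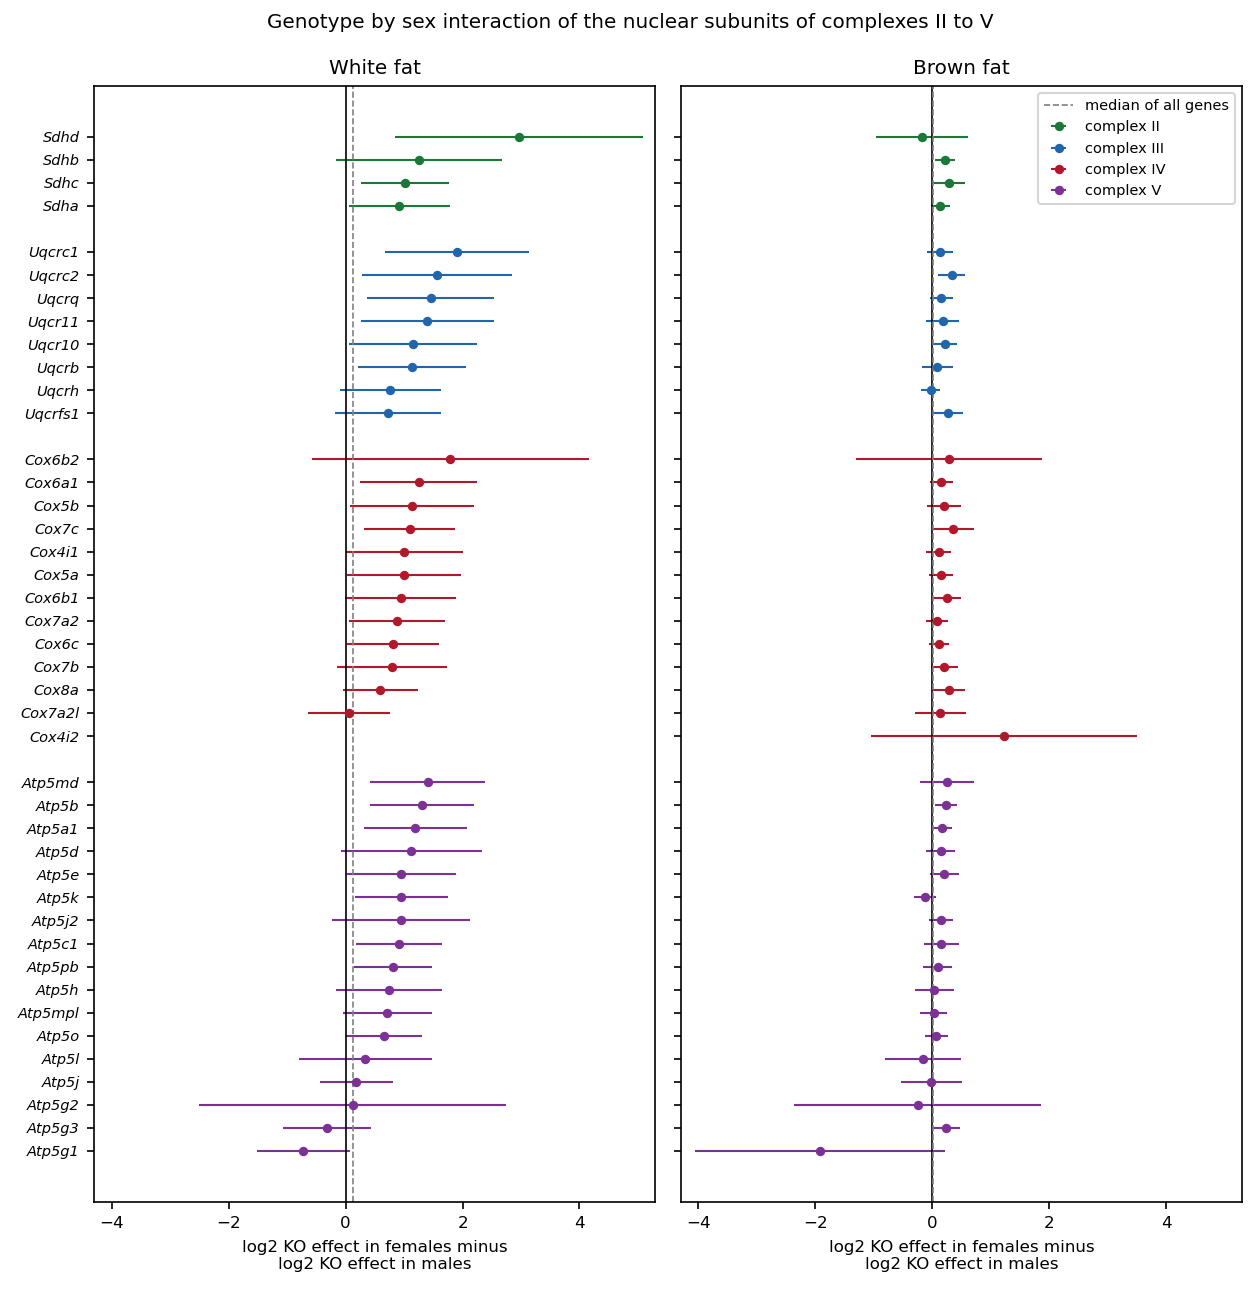
Log2 interaction (KO effect in females minus KO effect in males) of each subunit gene in white fat (left) and brown fat (right), from the authors' deposited tables, with 95% intervals as bars, colours for the complexes and a dashed line at the median of all genes. In white fat 39 of 41 points lie right of 0, and for 40 of the 41 genes in both tables the error is smaller in brown fat.

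The medians of the 4 complexes in white fat spanned 0.81 to 1.28. That of complex II was 1.13 over 4 genes, that of complex III 1.28 over 8, that of complex IV 0.97 over 12 and that of complex V 0.81 over 17. The median standard error of a member was 0.43, and 32 of the 41 lay within 1 standard error of their own from the members' median of 0.95. Only genes with a moderated t of at least 3.74 passed the adjusted threshold in this table. A subunit with the median error would thus have needed an interaction of 1.60 to pass, which leaves smaller interactions not detectable with these libraries.

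In complex II every gene lay above 0 in white fat. Sdhd, which anchors the complex in the inner membrane and helps bind ubiquinone (ENSMUSG00000000171.6, chromosome 9, 50507657 to 50515112, GRCm39), had the highest estimate of all members at 2.97 ± 0.98 (the authors' deposited table, limma adjusted p = 0.0890). Its mean log2 expression was 3.78, and its 95% interval was wide, from 0.85 to 5.09. The other anchor subunit, Sdhc, was at 1.02 ± 0.35 (the authors' deposited table, limma adjusted p = 0.102). Sdha, the flavoprotein that oxidises succinate, was at 0.92 ± 0.40 (the authors' deposited table, limma adjusted p = 0.181). Sdhb, which carries the iron-sulfur centres, was at 1.25 ± 0.66 (the authors' deposited table, limma adjusted p = 0.254). The 95% intervals of the 4 genes overlapped, and differences among them were not tested.

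Complex III held the member with the smallest p of all. Uqcrc1, a core protein (ENSMUSG00000025651.15, chromosome 9, 108765701 to 108778691, GRCm39), was at 1.91 ± 0.57 (the authors' deposited table, limma adjusted p = 0.0660), with a 95% interval of 0.68 to 3.14. Its partner in the core, Uqcrc2, was at 1.56 ± 0.60 (the authors' deposited table, limma adjusted p = 0.130). The Rieske iron-sulfur protein gene Uqcrfs1, which hands electrons towards cytochrome c1, was the lowest of the complex at 0.72 ± 0.42 (the authors' deposited table, limma adjusted p = 0.306). Its interval overlapped those of both core proteins, and the difference was not tested. The small subunits Uqcrb, Uqcrh, Uqcrq, Uqcr10 and Uqcr11 had a median of 1.16 and ranged from 0.76 for Uqcrh, the hinge protein, to 1.45 for Uqcrq. Uqcrq had an error of 0.51 and an adjusted p of 0.103 in the authors' deposited table, and Uqcrb stood at 1.14 ± 0.43 with an adjusted p of 0.125.

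The nuclear subunits of complex IV surround a catalytic core that mitochondria make themselves. Cox7c had the smallest p of the complex, at 1.09 ± 0.36 (the authors' deposited table, limma adjusted p = 0.0888, chromosome 13, 86192935 to 86195023, GRCm39). Cox6a1, the isoform of subunit VIa found in most tissues, was at 1.25 ± 0.46 (the authors' deposited table, limma adjusted p = 0.120). Cox5b was at 1.13 ± 0.49 (the authors' deposited table, limma adjusted p = 0.176). The estimates of Cox4i1, Cox5a, Cox6b1, Cox6c, Cox7a2, Cox7b and Cox8a lay between 0.59 for Cox8a and 1.004 for Cox4i1, the subunit at which ATP can inhibit the enzyme, in the authors' deposited table. Cox6b2, an isoform known from testis, had an estimate of 1.79 with an error of 1.10 at a mean log2 expression of 0.90, near the floor of the authors' deposited table. Cox4i2, the isoform of Cox4i1 known from lung, was read in brown fat alone, at 1.23 ± 1.12 and a mean log2 expression of 0.76 in the authors' deposited table.

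Cox7a2l stood lowest in complex IV. Its product is a relative of Cox7a2 that is known in mice to differ between strains and joins complexes III and IV into supercomplexes in some of them. Whether it does so in the strain used here was not tested. Cox7a2l was at 0.06 ± 0.32 (the authors' deposited table, limma adjusted p = 0.928), with an interval of -0.64 to 0.76, and Cox7a2 was at 0.87 ± 0.38 (adjusted p = 0.179). With the all-gene median subtracted, the estimate of Cox7a2l turned to -0.07. The difference between both genes was not tested, since it needs values per library.

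In complex V all genes of the catalytic head, the stalks and the accessory subunits lay above 0. Atp5j and Atp5l did so by less than 1 standard error. Of the 3 genes of the membrane ring, 1 lay above 0 and 2 below. The F1 head and its central stalk are encoded by Atp5a1, Atp5b, Atp5c1, Atp5d and Atp5e, whose median was 1.12 with a range of 0.92 to 1.30. Atp5b, the catalytic beta subunit (chromosome 10, 127919142 to 127926260, GRCm39), was at 1.30 ± 0.41 (the authors' deposited table, limma adjusted p = 0.0773). Atp5a1, the alpha subunit, was at 1.19 ± 0.41 (the authors' deposited table, limma adjusted p = 0.0955). The peripheral stalk, which keeps the head from turning (Atp5pb, Atp5h, Atp5j and Atp5o), had a median of 0.70, from 0.18 for Atp5j to 0.81 for Atp5pb. Among the accessory subunits in the membrane, where dimers of the enzyme form (Atp5k, Atp5l, Atp5j2, Atp5md and Atp5mpl), the median was 0.95, from 0.34 for Atp5l to 1.402 for Atp5md in the authors' deposited table. Atp5md, also known as DAPIT, had an error of 0.45 and an adjusted p of 0.0842 in the authors' deposited table.

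Subunit c, which forms the rotating ring, is encoded by 3 genes whose mature proteins are the same and whose import signals differ. Atp5g1 (chromosome 11, 95959678 to 95966496, GRCm39) was at -0.72 ± 0.37 (the authors' deposited table, limma adjusted p = 0.246), the lowest estimate of all members in white fat. Atp5g3 was at -0.32 ± 0.35 (the authors' deposited table, limma adjusted p = 0.598). Its interval of -1.07 to 0.43 does not reach the median of complex V, 0.815. Neither does that of Atp5j in the peripheral stalk, -0.44 to 0.806. That median includes both genes, and its own error was not computed. Atp5g2 was at 0.12 ± 1.22 (the authors' deposited table, limma adjusted p = 0.961), an error too wide to place it, and moved to -0.01 relative to the median of all genes. Mean log2 expression was 4.21 for Atp5g1, 10.28 for Atp5g3 and 0.81 for Atp5g2. These 3 genes include both members below 0 in white fat, but no estimate differed from 0 past the threshold and the contrast with the rest of complex V was not tested. Atpif1, the inhibitor of the ATP synthase, which the symbol rule does not take, was also below 0 at -0.45 ± 0.26 (the authors' deposited table, limma adjusted p = 0.300).

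The promoters below belong to the gene with the smallest p in each complex and to Atp5g1, the lowest estimate, and are shown because nuclear respiratory genes are known to share binding motifs of NRF1, GABP, YY1 and ERR factors. Each is the RefSeq window of 300 bases (GRCm38.p6) from 250 bases before to 50 after the start site, written 5′ to 3′ along the gene's strand, with the bases of matching motifs in capitals. The motifs searched on both strands were GCGCANGCG (the core of the NRF1 site), CCGGAAG (the ETS core that GABP binds), AANATGGCG (YY1) and TCAAGGTCA (the ERR half-site). No match of one of these overlapped a match of another in the members' windows.
Sdhd, chr9:50603800-50604099, minus strand: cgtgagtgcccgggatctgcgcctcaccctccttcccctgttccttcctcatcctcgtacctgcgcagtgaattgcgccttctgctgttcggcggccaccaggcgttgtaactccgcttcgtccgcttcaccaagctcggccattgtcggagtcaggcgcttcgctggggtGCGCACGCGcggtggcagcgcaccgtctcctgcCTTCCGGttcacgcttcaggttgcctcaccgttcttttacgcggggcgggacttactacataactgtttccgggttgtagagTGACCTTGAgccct
Uqcrc1, chr9:108936398-108936697, plus strand: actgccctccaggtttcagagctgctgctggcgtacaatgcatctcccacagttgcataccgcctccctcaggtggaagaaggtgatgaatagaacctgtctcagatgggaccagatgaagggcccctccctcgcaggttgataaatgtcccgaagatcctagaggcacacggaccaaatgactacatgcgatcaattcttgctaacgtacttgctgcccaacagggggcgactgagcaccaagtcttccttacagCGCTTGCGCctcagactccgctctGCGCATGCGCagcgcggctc
Cox7c, chr13:86046746-86047045, minus strand: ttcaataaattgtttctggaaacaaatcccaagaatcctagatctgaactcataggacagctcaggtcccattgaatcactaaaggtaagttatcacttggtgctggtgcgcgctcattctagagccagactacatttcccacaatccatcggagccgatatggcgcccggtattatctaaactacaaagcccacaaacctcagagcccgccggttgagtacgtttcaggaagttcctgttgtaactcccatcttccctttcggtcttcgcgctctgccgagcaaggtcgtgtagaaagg
Atp5b, chr10:128083057-128083356, plus strand: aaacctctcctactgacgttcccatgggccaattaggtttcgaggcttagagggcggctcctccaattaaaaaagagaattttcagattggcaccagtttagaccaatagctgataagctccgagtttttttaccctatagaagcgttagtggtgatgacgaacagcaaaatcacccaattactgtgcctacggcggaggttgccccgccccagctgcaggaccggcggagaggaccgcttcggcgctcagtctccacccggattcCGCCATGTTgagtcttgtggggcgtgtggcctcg
Atp5g1, chr11:96075582-96075881, minus strand: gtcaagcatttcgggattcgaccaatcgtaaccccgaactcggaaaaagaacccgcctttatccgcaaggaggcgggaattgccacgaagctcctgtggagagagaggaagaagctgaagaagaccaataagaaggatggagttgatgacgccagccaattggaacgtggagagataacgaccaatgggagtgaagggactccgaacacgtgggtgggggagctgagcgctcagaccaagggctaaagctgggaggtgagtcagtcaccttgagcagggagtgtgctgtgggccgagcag
Sdhd held 1 NRF1 core, 1 ETS core and 1 ERR half-site, Uqcrc1 3 NRF1 cores of which a pair overlap each other, and Atp5b 1 YY1 match 17 bases after the start. In Cox7c and Atp5g1 none of these motifs was present in the window.

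Promoter windows were found for 33 of the 42 genes, 36 windows in all, and they were richer in these motifs than promoters at large. The NRF1 core was present in 12 of 36 windows (33.3%), against 6.25% of all 32851 windows, and the ETS core in 13 (36.1%), against 8.86%. At least 1 of these cores was present in 19 windows (52.8%), against 13.9% of all, and both in 6 (16.7%), against 1.21%. YY1 matches were present in 3 windows (8.33%) and ERR half-sites in 2 (5.56%), against 2.38% and 0.42% of all windows. GGGCGG, the GC box of SP1, did not stand apart with 36.1% of the members' windows and 35.7% of all. The members' windows held a median of 19 CpG pairs, against 7 in all windows. The NRF1, ETS and YY1 motifs each contain a CpG, and the comparison was not matched for CpG content. The part of CpG content in the excess was not tested. A match is a description of letters and says nothing of binding in these tissues.

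Reads from sequence that several genes share can be miscounted, so the share of each member's distinct stretches of 50 bases that also occur in a transcript of another gene was counted in GENCODE M21. The median over the 42 genes was 0.74%, and 19 genes shared none, Sdhd, Uqcrc1 and Atp5g3 among them. Atp5l shared 68.5%, mostly with 12 pseudogenes, Uqcrb 43.2%, Atp5g2 38.3%, Atp5h 36.9%, Atp5o 28.2%, Cox7c 23.0%, Atp5pb 22.5%, Cox5b 21.8% and Cox7a2l 17.8%. Cox6a1 shared 12.3%, Uqcr11 10.9% and Atp5g1 10.2%, and every other member shared less. The handling of reads with several matches is not stated, so the estimates of all genes with shared stretches are uncertain, most of all those named.

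In brown fat 38 of the 41 genes in both tables lay closer to 0, the exceptions being Atp5g1, Atp5g2 and Cox7a2l. Of 42 members 35 lay above 0, where 51% of all genes in that table did, and their median interaction was 0.15, a ratio of 1.11, against 0.01 over all genes. None passed an adjusted p of 0.05 in the authors' deposited limma test, in which 2 of 15363 genes (0.013%) passed. At an unadjusted p of 0.05, 8 passed, all above 0, against 3.33% of all genes. The median error was 0.12 for the members and 0.59 for all genes, so a small interaction passed more readily among the members. Uqcrc2 had the smallest p of the members, at 0.33 ± 0.12 (the authors' deposited table for brown fat, limma adjusted p = 0.624). Atp5b was at 0.24 ± 0.09 and Sdhb at 0.22 ± 0.09 (the authors' deposited table for brown fat, limma adjusted p = 0.690 each). Sdhc at 0.28 ± 0.13 (adjusted p = 0.753) and Atp5a1 at 0.17 ± 0.08 (adjusted p = 0.764) followed in complexes II and V in the authors' deposited table. In complexes III and IV, Uqcr10 was at 0.22 ± 0.10, Cox6b1 at 0.25 ± 0.12 (adjusted p = 0.745 each) and Cox8a at 0.29 ± 0.14 (the authors' deposited table for brown fat, limma adjusted p = 0.751).

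The brown fat estimates were also more precise. The median error of a member was 0.12 in brown fat, and 40 of the 41 genes in both tables had the smaller error there. Only genes with a moderated t of at least 5.67 passed the adjusted threshold in brown fat. A subunit with the median error would have needed an interaction of 0.67 to pass, so smaller interactions were not detectable there either. Among the 36 members whose mean log2 expression in brown fat reached 6, the 95% intervals together spanned -0.54 to 0.72. Genes of complex V again held the lowest estimates, Atp5g1 at -1.91 ± 1.05 (adjusted p = 0.801) and Atp5g2 at -0.25 ± 1.04 (the authors' deposited table, limma adjusted p = 0.985), with mean log2 expressions of 1.57 and 1.70. Atp5g3, at a mean log2 expression of 9.47, was at 0.24 ± 0.12 (the authors' deposited table for brown fat, limma adjusted p = 0.767).

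**Figure D2:**
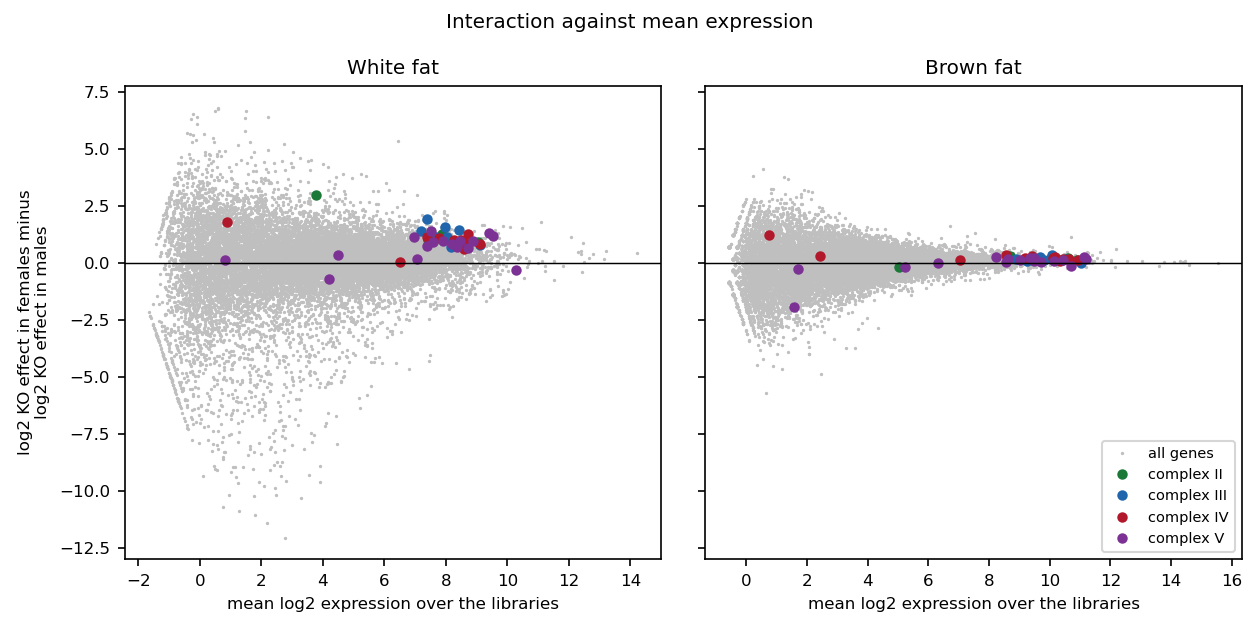
Log2 interaction against mean log2 expression over the libraries for all genes (grey) and the subunit genes (colours) in white fat (left) and brown fat (right), from the authors' deposited tables. Most subunit genes sit at a mean of 6 or more, as 36 do in each table, above 0 in white fat except Atp5g3 and close to 0 in brown fat.

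Did the interaction of the subunit genes differ between the depots? The white fat estimate was above the brown fat estimate for 39 of the 41 genes in both tables, with a median difference of 0.79 against 0.20 over the 14502 genes shared by the tables. No member passed an adjusted p of 0.05 for the difference, computed from both estimates and their errors and adjusted over all shared genes, where 36 genes (0.248%) passed. At an unadjusted p of 0.05, 11 of 41 members passed, against 15.7% of all shared genes, whose median error of 0.73 exceeded the members' 0.45. The largest differences with the smallest p were those of Sdhd, 3.14 ± 1.06, and Uqcrc1, 1.77 ± 0.58 (adjusted p = 0.170 each). Atp5k followed at 1.08 ± 0.38 (adjusted p = 0.192), with 0.95 ± 0.37 in white fat and -0.13 ± 0.09 in brown fat in the authors' deposited tables. Cox7a2l and Atp5g3 were the members with a lower value in white fat, with differences of -0.08 ± 0.39 (adjusted p = 0.947) and -0.56 ± 0.37 (adjusted p = 0.486). The test takes the tables as independent. With errors correlated at 0.5, as shared animals could give, Sdhd (adjusted p = 0.0224), Uqcrc1 (0.0382) and Atp5k (0.0446) passed. In that setting 2001 genes (13.8%) passed in all and 8.07% passed above 0, so the members' 3 of 41 is near the background. Across the 41 genes the estimates of both depots had a Pearson r of 0.45 and a Spearman rho of 0.40, a description over genes that share libraries within each depot, and r was 0.23 over the 36 with a mean of at least 6 in white fat.

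**Figure D3:**
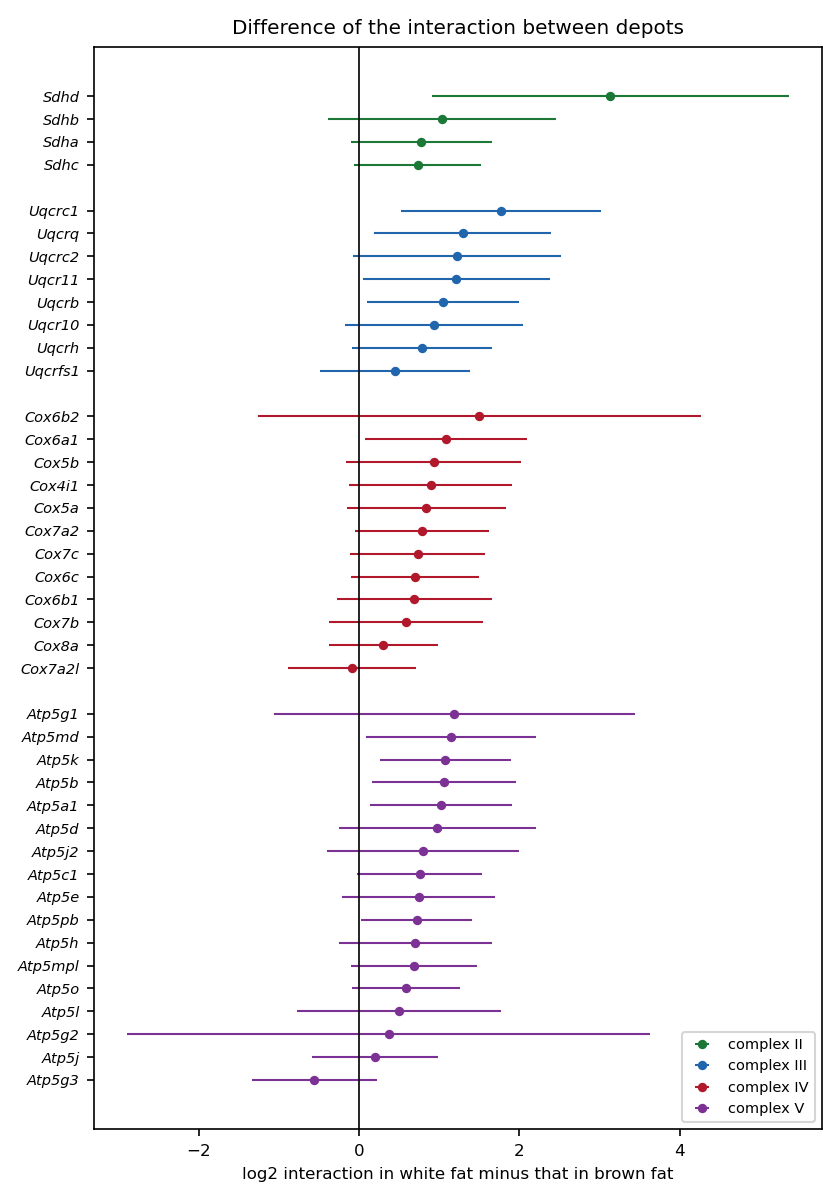
Difference of the log2 interaction in white fat minus that in brown fat for the 41 subunit genes in both tables, with 95% intervals, by complex. All but Cox7a2l and Atp5g3 lie right of 0, and most intervals cross 0.

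The assembly factors, which help build the complexes, lay on the same side as the subunits in white fat. Of 38 assembly factors listed for complexes II to V, 37 were measured in white fat and all 37 lay above 0, as 55.9% of all genes did, with a median of 0.98. None of the 37 passed the adjusted threshold, and 16 passed an unadjusted p of 0.05 above 0, against 11.9% of all genes. Coa5, which helps build complex IV, had the smallest p of these factors at 1.14 ± 0.32 (adjusted p = 0.0549), and Sdhaf4, a chaperone of Sdha, was at 1.01 ± 0.28 (the authors' deposited table, limma adjusted p = 0.0559). Uqcc1, needed for translation of cytochrome b, was at 2.10 ± 0.59 (the authors' deposited table, limma adjusted p = 0.0570). In brown fat 25 of the 37 lay above 0, where 51% of all genes did, with a median of 0.11, and none passed. Cytochrome c1 (Cyc1), which belongs to complex III but not to the symbol rule, was at 1.65 ± 0.62 (the authors' deposited table for white fat, limma adjusted p = 0.123). Cytochrome c (Cycs) was at 1.76 ± 0.59 (the authors' deposited table, limma adjusted p = 0.0890). Ndufa4, now counted as a subunit of complex IV, came closest to the threshold at 1.44 ± 0.39 (the authors' deposited table, limma adjusted p = 0.0509).

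The 9 regulators of mitochondrial genes showed no common side in white fat, with 4 above 0, against 55.9% of all genes. Their median was -0.15 and none passed the adjusted threshold. The coactivators Ppargc1a and Ppargc1b were at 2.31 ± 1.79 (adjusted p = 0.441) and 2.36 ± 1.10 (the authors' deposited table, limma adjusted p = 0.206). Esrra, the nuclear receptor ERR alpha, was at 1.196 ± 0.50 (adjusted p = 0.165), while Nrf1 was at -0.94 ± 0.44 (the authors' deposited table, limma adjusted p = 0.213). Gabpa and Gabpb1, the subunits of GABP, lay on opposite sides at 0.86 ± 0.50 (adjusted p = 0.305) and -0.85 ± 0.47 (the authors' deposited table, limma adjusted p = 0.275). Pprc1, Yy1 and Tfam lay between -0.28 and -0.15 in the authors' deposited table. In brown fat 6 of the 9 lay above 0, where 51% of all genes did, with a median of 0.21, and none passed. The supercomplex factors Higd1a and Higd2a were at 0.64 ± 0.31 and 0.63 ± 0.28 in white fat (the authors' deposited table, limma adjusted p = 0.226 and 0.188). Micos13 was put in the same list, though its product is a subunit of the MICOS complex of the cristae. It was at 1.03 ± 0.52 (the authors' deposited table, limma adjusted p = 0.237). With Cox7a2l the 4 genes of this list had a median of 0.63 in white fat and of 0.15 in brown fat. All 4 were above 0 in both, where 55.9% and 51% of all genes were.

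In white fat the tissue isoforms left out of the group had estimates and errors above the members' medians of 0.95 and 0.43. Cox7a1 was at 3.92 ± 2.35 (adjusted p = 0.317), Cox8b at 3.17 ± 1.70 (adjusted p = 0.266) and Cox6a2 at 2.43 ± 1.95 (the authors' deposited table, limma adjusted p = 0.460). Their counterparts in most tissues, Cox7a2, Cox8a and Cox6a1, had estimates of 0.87, 0.59 and 1.25 in white fat (the authors' deposited table). In brown fat Cox7a1 was at 0.11 ± 0.10 and Cox8b at 0.12 ± 0.11 (the authors' deposited table, limma adjusted p = 0.907 each). Cox6a2, the muscle and heart isoform, was at -5.72 ± 1.24 in brown fat (the authors' deposited table, limma adjusted p = 0.131), the lowest interaction of that whole table, at a mean log2 expression of 0.66.

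Markers of other cell types also lay away from 0 in the white fat table. All 8 thermogenic fat genes lay above 0, as 55.9% of all genes did, with a median of 3.25 and a median error of 2.45. Of these 1 passed, Kcnk3, where 1.06% of all genes passed above 0. All 11 skeletal muscle genes also lay above 0, with a median of 3.69 and a median error of 2.81, and none passed. All 8 T cell genes and all 7 B cell genes lay below 0, between -9.15 and -5.16 and between -11.07 and -5.22. Their median errors were 1.71 and 2.37. Of them 8 and 4 passed the adjusted threshold, where 618 of all 16738 genes passed below 0. The 8 mature adipocyte genes had a median of 0.32 with 7 above 0, against 55.9% of all genes, and none passed. In brown fat the thermogenic median was 0.10 and the adipocyte median 0.21. Muscle genes had a median of -3.46 there with a median error of 1.87. Of these 10 of 11 lay below 0, where 7523 of all 15363 genes did. No thermogenic, adipocyte or muscle gene passed in brown fat. Nor did any of the 3 T cell and 4 B cell genes measured there (medians 0.69 and -0.47). At an unadjusted p of 0.05, 3 of the 8 adipocyte genes passed in brown fat, all above 0, against 3.33% of all genes. Plin1 and Lipe were at 0.40 ± 0.10 each (the authors' deposited table for brown fat, limma adjusted p = 0.249 and 0.329). Of the 11 muscle genes 4 passed it, all below 0, and of the thermogenic genes 0 did, where 6.51% of all genes passed in either direction. The adipocyte genes had a median mean log2 expression of 10.32 in white and 10.02 in brown fat. Lep and Retn were lower in brown fat, at 4.31 and 4.24. The part of these cell types in the values of the subunit genes was not tested.

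**Figure D4:**
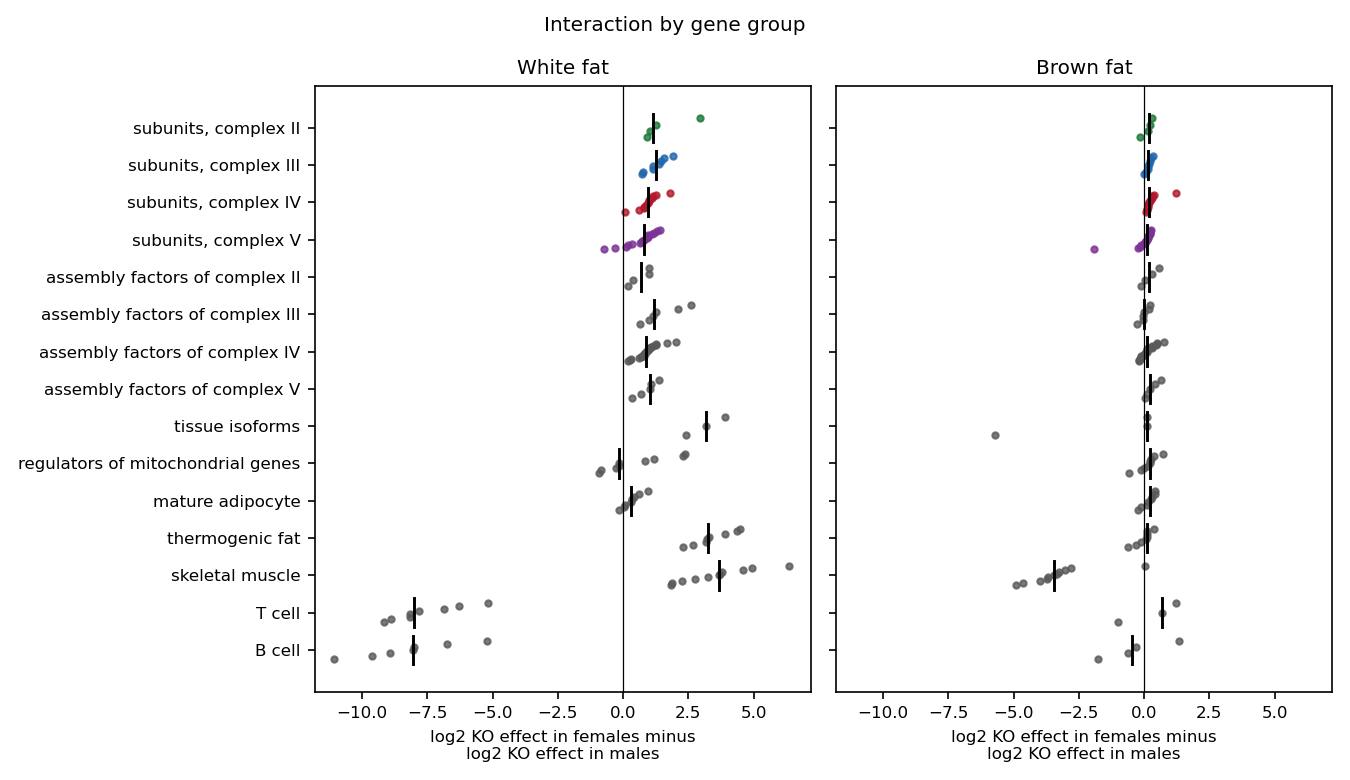
Log2 interaction of the subunit genes by complex, of the assembly factors, tissue isoforms and regulators, and of marker genes of other cell types, in white fat (left) and brown fat (right), with a point per gene and a black bar at each median. In white fat the subunits lie near 1, the thermogenic and muscle genes further right and the T and B cell genes far left.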

How the data were processed

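RNA was sequenced from white fat in 4 groups of 3 libraries, grouped by the sample titles. The submitters' processing notes name featureCounts (read counting), limma (linear models) and the GRCm39 build. The sources used here give no versions, aligner, annotation, strand setting or normalisation. The authors' deposited tables hold log2 interactions and mean log2 expression, the moderated t (a score with no fixed range), and p-values with Benjamini-Hochberg adjustment over all genes, which was checked. Standard errors (estimate over t) and 95% intervals were computed from these, with the total degrees of freedom that t and p give (13.4 in white fat, 33.9 in brown fat). The threshold was an adjusted p of 0.05, with no further filter.

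The difference between depots was tested two-sided with Welch-Satterthwaite degrees of freedom over all shared genes. The steps were tested on simulated data with independent errors in white and brown fat, which cannot check whether the depots are independent. A total of 48 columns of library values, 12 in each of 4 tables, carry names that match no label and were used in no step, so depth and per-library values are not reported and precision is known only from the errors of the fit. The planned fit of KO against WT within each sex was not made. P-values measure the spread between libraries, which may be technical.

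Members and lists were chosen with earlier results of these data known. Statistics were given for the 3 smallest p in white fat and the 2 in brown fat of each complex, members of opposite sign, paralogs, and genes of the lists picked from their values. Roles within a complex follow textbook knowledge. Promoters are from RefSeq (GRCm38.p6), matched by symbol. Tables were handled with pandas 2.3.3 and numpy 2.4.6 under Python 3.11.15, tests with scipy 1.17.1, and plots with matplotlib 3.10.9.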

Additional observations from a re-analysis of the deposited data

How the results depend on the processing

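With an adjusted p of 0.10, 6 members passed in white fat, all above 0 (Uqcrc1, Atp5b, Atp5md, Cox7c, Sdhd and Atp5a1), where 2027 of all 16738 genes (12.1%) passed, 4.67% of all above 0, and 0 members passed in brown fat. With errors of the tables correlated at 0.5, 3 members passed in the difference between depots and 2001 of all genes (13.8%) did, in place of 36. No member passed in either depot with protein-coding genes only, an expression filter at log2 of 10, centring, the tissue isoforms added or the paralogs left out, nor, in alternatives chosen after seeing the data, relative to the median of protein-coding genes or at a mean of at least 6. The members' median then ranged from 0.80 to 0.97 in white fat. Relative to the median of all genes Cox7a2l turned to -0.0713 and Atp5g2 to -0.00839, and relative to that of protein-coding genes to -0.0883 and -0.0254. In the difference between depots, centring gave a median of 0.67, and neither it, a normal distribution, protein-coding genes only nor a threshold of 0.10 let a member pass, though all genes passing then numbered 58, 341, 51 and 235. No paired analysis was possible because the library columns carry no replicate number or group. For the same reason another pseudocount and leaving out replicates were not run.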

Other observations

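Processed pseudogenes named for the subunits were read beside them. In white fat Atp5pb-ps was at 3.75 ± 0.96 (adjusted p = 0.0450) and Atp5l-ps2 at 3.79 ± 1.17 (the authors' deposited table, limma adjusted p = 0.0722), while their parent genes Atp5pb and Atp5l were at 0.81 ± 0.31 and 0.34 ± 0.53. The mean log2 expression of both pseudogenes was below 0, at -0.39 and -0.17, close to the floor of the table. In brown fat Atp5pb-ps was at -2.18 ± 1.10 (adjusted p = 0.773) and Atp5l-ps2 at 0.17 ± 0.995 (the authors' deposited table, limma adjusted p = 0.985). Both were picked out after their values were seen.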
